A study of Mus musculus with 6 samples.

Results

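Binding of Lsd1 at the genes of the Nfi and Runx families was examined in C2C12, a myoblast line from the mouse that fuses into myotubes and can also be driven towards adipocytes. The 10 genes were Nfia, Nfib, Nfic and Nfix, the Runx genes Runx1, Runx2 and Runx3 with their partner subunit Cbfb, and Runx1t1 and Cbfa2t2 of the ETO family of corepressors. They were chosen by name and family. A peak was assigned to a gene when its centre lay within the span of the gene's curated RefSeq transcripts on mm10 or within 10 kb of either end. By this rule 253 of the 95852 peaks in the 3 lists lay at these genes, 111 of 43426 in the myogenic, 64 of 18893 in the adipogenic and 78 of 33533 in the LSD1(OE) library. The 10 genes are among 26180 genes with a curated transcript.

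The myogenic library came from wild-type cells on day 1 in medium with horse serum, and the adipogenic library from wild-type cells on day 1 in medium with isobutylmethylxanthine, indomethacin, dexamethasone, insulin, T3 and rosiglitazone. LSD1(OE) cells on day 1 in the same adipogenic medium gave the last library. They carry a lentiviral, doxycycline-inducible, Flag-tagged LSD1 construct, were selected with G418, and were treated with doxycycline from before differentiation on, so they differ from wild-type cells in line history, selection and drug as well as in LSD1. All cells were at passages 3-5, and the antibody was directed against the C-terminus of Lsd1. Each condition had 1 ChIP library and 1 input library. No value has a replicate, and each difference given here is one between single libraries. The peak lists hold no expression values, so neither the level of Lsd1 nor markers of muscle or fat cells could be checked.

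Nuclear factor I proteins bind DNA as dimers at a palindrome of TTGGC and GCCAA, and Nfix is known for the switch from embryonic to fetal gene expression in muscle. Runx proteins bind TGTGGT or TGCGGT together with Cbfb, and Runx1 is known for haematopoiesis and for its rise in damaged muscle, Runx2 for bone and Runx3 for lymphocytes and sensory neurons. Each Runx gene is transcribed from a distal promoter, P1, and a proximal promoter, P2, which encode different N-termini. ETO proteins do not bind DNA themselves and bring histone deacetylase complexes to factors such as Runx proteins and E-proteins. Lsd1 (Kdm1a) removes methyl groups from histone H3 lysine 4 and acts in several repressor complexes.

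The DNA under the strongest signals is shown first, from the GRCm38.p6 assembly, on the strand of each gene. In these lines capitals mark a match to 1 of 5 short motifs searched on both strands, namely TTGGCA as the half-site of NFI, either TGTGGT or the variant written TGCGGT for RUNX, the E-box of sequence CAGCTG and the AP-1 site given by TGANTCA. A match is a description of the letters and not a bound site. The Nfic line covers 201 bases about the summit of the highest-scoring peak of all 10 genes, in an intron at chr10:81411844-81412044. The Nfix line covers the summit of the highest-scoring Nfi promoter peak, at chr8:84775073-84775273, and the Cbfa2t2 line that of the highest-scoring ETO peak, at chr2:154436265-154436465. The Runx1 P2 line gives the 150 bases upstream of the start site with the highest-scoring promoter peak, at chr16:92697330-92697479.
Nfic intron: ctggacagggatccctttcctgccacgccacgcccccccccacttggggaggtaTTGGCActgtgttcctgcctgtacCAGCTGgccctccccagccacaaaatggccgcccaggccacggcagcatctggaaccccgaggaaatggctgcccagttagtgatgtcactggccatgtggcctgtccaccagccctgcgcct
Nfix promoter: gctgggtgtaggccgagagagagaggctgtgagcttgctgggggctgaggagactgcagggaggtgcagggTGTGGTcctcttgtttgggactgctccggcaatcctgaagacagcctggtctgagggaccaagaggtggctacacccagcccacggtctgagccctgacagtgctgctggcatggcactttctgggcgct
Runx1 P2: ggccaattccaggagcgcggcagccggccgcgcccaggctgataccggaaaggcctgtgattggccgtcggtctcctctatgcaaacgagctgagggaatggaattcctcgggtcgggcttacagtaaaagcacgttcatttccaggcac
Cbfa2t2 promoter: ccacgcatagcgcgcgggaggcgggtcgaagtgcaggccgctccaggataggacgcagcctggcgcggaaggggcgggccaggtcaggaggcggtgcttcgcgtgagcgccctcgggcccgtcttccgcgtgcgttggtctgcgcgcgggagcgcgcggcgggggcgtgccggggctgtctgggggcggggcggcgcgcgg
The Nfic summit held an NFI half-site and an E-box, and the Nfix summit held a TGTGGT. The Runx1 P2 and Cbfa2t2 sequences held none of these motifs and were rich in CpG, with 12 CpGs in 150 bases and 34 in 201.

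The next lines show where the Runx promoters differ. TGTGGT was found in the 500 bases upstream of P1 of Runx1, Runx2 and Runx3, and upstream of P2 of none of them. Of all 31647 start sites, 25.1% had it in that window. Each line has 60 bases with the match in capitals, which lies on the opposite strand and so reads ACCACA. The match was 303 bases upstream of the start site in Runx1, at chr16:92826350-92826409, and 169 bases upstream in Runx2, at chr17:44814939-44814998. Runx3 held 3 matches, and its line, at chr4:135120484-135120543, shows the pair nearest the start site.
Runx1 P1: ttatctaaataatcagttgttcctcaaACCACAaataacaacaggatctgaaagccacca
Runx2 P1: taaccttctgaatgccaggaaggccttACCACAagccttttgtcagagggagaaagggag
Runx3 P1: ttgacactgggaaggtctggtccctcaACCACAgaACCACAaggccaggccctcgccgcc
Counted 500 bases either side of the start site, P1 was poor in CpG, with an observed over expected ratio of 0.335 for Runx1, 0.164 for Runx2 and 0.359 for Runx3. P2 was rich in it, with 0.865, 0.909 and 0.973 against a median of 0.510 over all start sites.

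In total, Lsd1 peaks lay at 9 of the 10 genes in the myogenic list and at 8 in each of the others. Over all 26180 genes the shares with a peak in the same kind of window were 62.5, 41.2 and 53.9%, and over the 7731 genes whose window spans at least 50 kb, as that of every gene here does, they were 75.4, 52.5 and 66.7%. The counts of 8 or 9 of 10 lie above these shares, with only 10 genes behind them. The number of peaks per length was also higher than across the genome. The windows held 5.60 peaks per 100 kb in the myogenic, 3.23 in the adipogenic and 3.94 in the LSD1(OE) library, against 1.59, 0.693 and 1.23 over the genome. Medians over the 7731 long windows were 1.77, 0.471 and 1.33. Without Nfix, whose background is described further on, the windows held 4.71, 2.73 and 3.43 peaks per 100 kb.

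**Figure D1:**
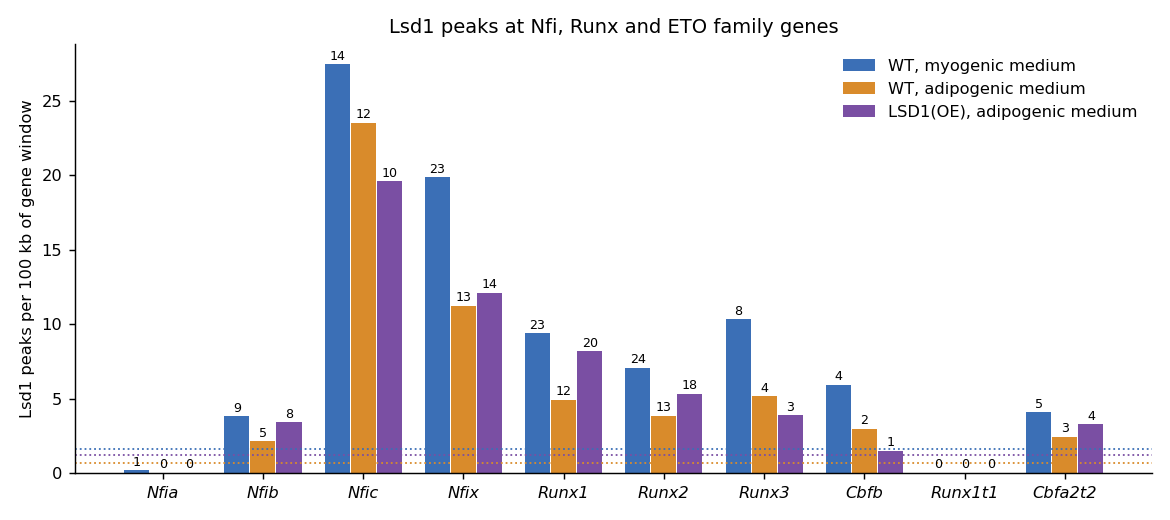
Lsd1 peaks per 100 kb of gene window (vertical axis) for the 10 genes in the 3 libraries, with the number of peaks above each bar. Dotted lines give each library's mean over the genome. Nfic and Nfix stand above the other genes, and Nfia and Runx1t1 are at or near 0.

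The Nfi genes spanned the whole range. Nfia (chr4:97581943-98118876), a factor of glia and brown fat, had 1 myogenic peak in a window of 557 kb and none in the other libraries. That peak was intronic, centred 5284 bp upstream of the second start site, with 68 tags and a score of 233. The score is 10 times −log10 of the peak caller's p-value, and the lists begin at 50. Nfib (chr4:82290173-82505779), a factor of lung and brain development, had 9 myogenic, 5 adipogenic and 8 LSD1(OE) peaks. Its strongest peak was intronic, centred 105360 bp inside the gene in the myogenic list. All 3 lists shared it, with scores of 482, 217 and 236 from 131, 125 and 95 tags. Once divided by the caller's scaling of the ChIP tags, given further on, these scores were 254, 170 and 129.

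Nfic (chr10:81396191-81427173), a factor known from tooth root formation, had the densest signal, with 14 myogenic, 12 adipogenic and 10 LSD1(OE) peaks in a window of 51.0 kb. Among the 7731 long windows it ranked 3rd, 1st and 20th by peaks per 100 kb. Peaks covered 49.1% of the window in the myogenic, 38.2% in the adipogenic and 47.2% in the LSD1(OE) library. The lower number of LSD1(OE) peaks went with wider peaks, 4 of the 10 being at least 3 kb long against 2 of 14 in the myogenic list and none of 12 in the adipogenic list. Over all peaks 2.06% of the myogenic, 2.85% of the adipogenic and 2.75% of the LSD1(OE) peaks were as long. The widest LSD1(OE) peak at Nfic, an intronic one of 7379 bp with 684 tags, had the highest score of any peak at the 10 genes, 2531. Over the merged region of 19039 bp that holds it, tag density was 1.65 tags per kb per 1000000 ChIP tags in the myogenic, 1.403 in the adipogenic and 1.66 in the LSD1(OE) library. On the log2 scale LSD1(OE) was 0.24 above adipogenic medium there, with a counting interval of 0.13 to 0.35.

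Nfix (chr8:84704712-84800368) had 23, 13 and 14 peaks in a window of 116 kb. They held 4008 tags over 52.5 kb in the myogenic, 2533 tags over 28.5 kb in the adipogenic and 984 tags over 14.8 kb in the LSD1(OE) library. Myogenic peaks covered 45.4% of the window, and 5 of them were at least 3 kb long, the longest 7508 bp. In the adipogenic list 2 peaks, of 4090 and 3811 bp, were that long, and in the LSD1(OE) list none. The highest score, 1625, belonged to a myogenic intronic peak of 4246 bp with 463 tags. Adipogenic and LSD1(OE) peaks at the same place scored 325 and 315. The local background at Nfix differed between these libraries, as given with the tag densities.

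Runx1 (chr16:92601466-92826074) had 23, 12 and 20 peaks, and Runx2 (chr17:44495987-44814797) had 24, 13 and 18. These genes are the longest of the Runx family, with windows of 245 and 339 kb, and their peaks formed 25 and 30 merged regions over the 3 libraries. More than 2000 bp upstream of P2 lay 11 of the 23 myogenic, 5 of the 12 adipogenic and 10 of the 20 LSD1(OE) peaks of Runx1. For Runx2 these counts were 4 of 24, 1 of 13 and 2 of 18. The stretch upstream of P2 is a larger part of the window in Runx1, so the counts do not compare binding. P1 and P2 start at 92826074 and 92697329 in Runx1, and at 44814797 and 44736648 in Runx2. At Runx1, apart from the promoters, an intronic stretch 73346 to 75525 bp downstream of P2 held 265 myogenic tags in 2 peaks, 477 adipogenic tags in 1 peak and 435 LSD1(OE) tags in 1 peak. Tag densities there were 1.58, 1.58 and 1.66, and scores were 722, 1137 and 1585. Divided by the caller's scaling of the ChIP tags the scores were 381, 891 and 868. At Runx2 an intronic cluster near the 3′ end, 227601 to 235410 bp downstream of P2, held 4 myogenic peaks, 4 adipogenic peaks and 5 LSD1(OE) peaks between positions 44499902 and 44509349. The strongest of them scored 782, 391 and 810.

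The shorter genes of the family had fewer peaks. Runx3 (chr4:135120645-135177990) had 8 myogenic, 4 adipogenic and 3 LSD1(OE) peaks. Its strongest region, 17064 bp downstream of P2 at the main myogenic peak, scored 347, 496 and 448, so the order of the libraries differed there from that of the promoter peaks. Cbfb (chr8:105170674-105217989), the non-DNA-binding subunit, had 4, 2 and 1 peaks. Of the ETO genes, Cbfa2t2 (chr2:154436484-154539356) had 5, 3 and 4 peaks. Runx1t1 (chr4:13743302-13895056), the gene of ETO itself, had 0 in every library in a window of 172 kb. The nearest myogenic peak to its first start site was 78898 bp upstream, the nearest LSD1(OE) peak 78866 bp upstream and the nearest adipogenic peak 442842 bp upstream.

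**Figure D2:**
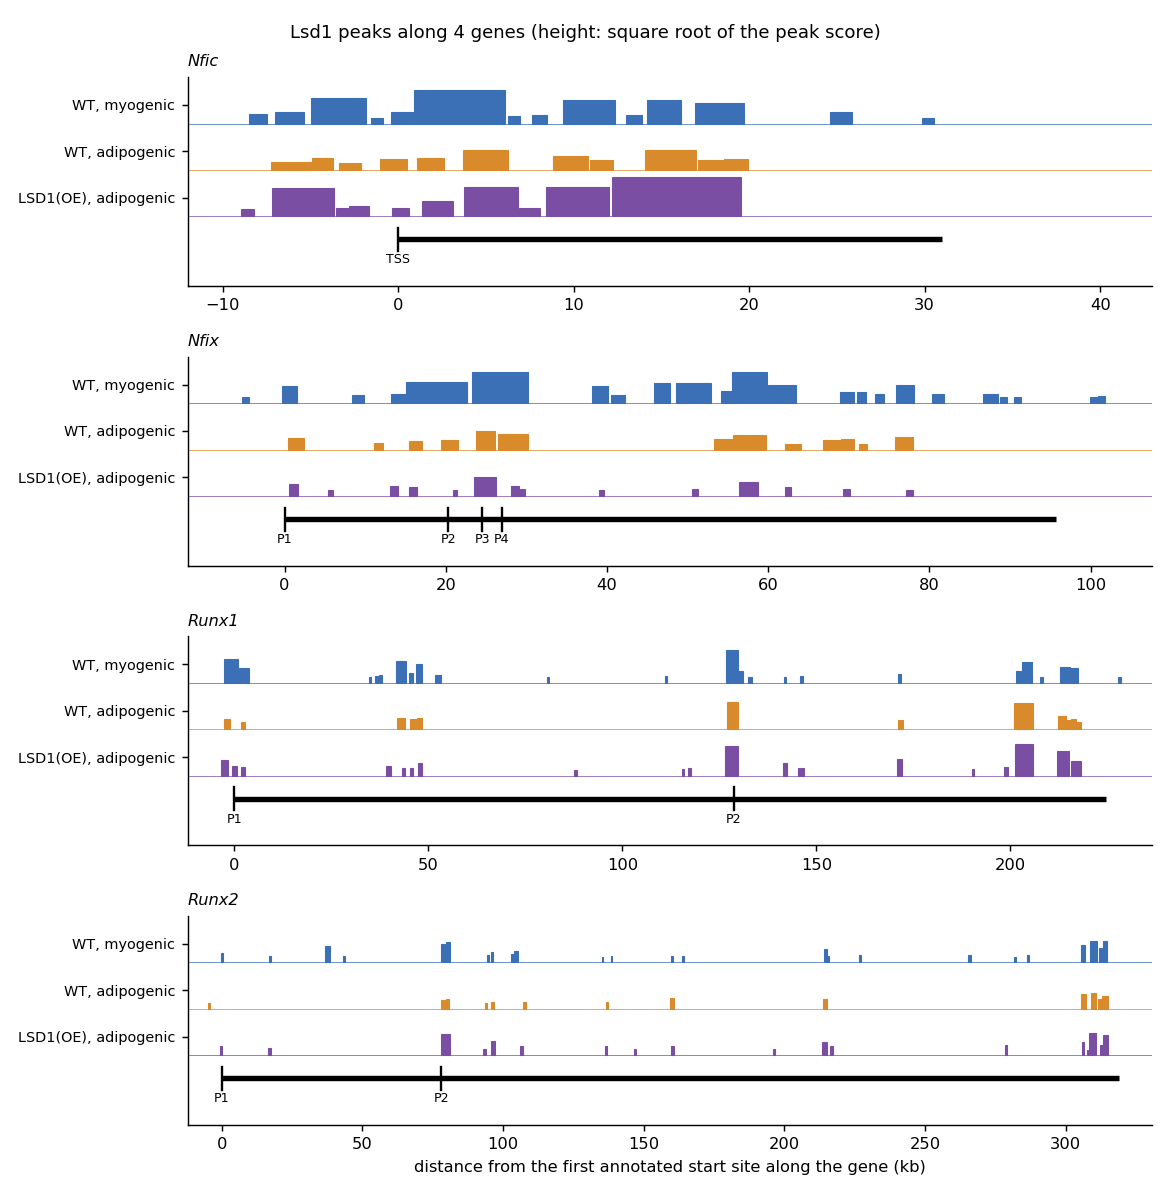
Peaks along Nfic, Nfix, Runx1 and Runx2 by distance from the first annotated start site in kb, in the direction of transcription, 1 track per library. Bar width is the peak's length, bar height the square root of its score on 1 scale for all genes, and ticks mark promoters. Nfic and Nfix are covered along much of their length in myogenic medium, while Runx1 and Runx2 peaks are spread over the gene with gaps between them.

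By peaks per 100 kb in the 3 libraries, the most alike pairs were Nfia with Runx1t1, which were nearly empty, and Nfib with Cbfa2t2. The summed absolute differences over the 3 libraries were 0.180 and 0.709. Runx2 was nearest to Cbfb at 5.83, Runx1 to Runx3 at 5.50 and Nfix to Runx1 at 20.7. Cbfb was nearest to Cbfa2t2 at 4.17. Nfic was nearest to Nfix, at a difference of 27.4.

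Most peaks lay in introns, 70.3% of the myogenic, 71.9% of the adipogenic and 73.1% of the LSD1(OE) peaks. Promoter peaks, centred within 2000 bp of a start site, were 18 of 111, 11 of 64 and 12 of 78. Peaks were assigned by lying in or near the gene, so a large intron share in long genes follows in part from the rule. The intron and promoter shares over all peaks were not counted. The start site of another gene was nearer to the centre for 33 myogenic, 19 adipogenic and 16 LSD1(OE) peaks. At Nfix the nearer gene was G430095P16Rik for 20 peaks of the 3 lists and Lyl1 for 4, and at Runx1 it was Gm30224 for 16. At Nfic the microRNA gene Mir1191b was nearer for 8 and Gm16104 for 7. These peaks may belong to either gene, since position alone assigned them.

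A promoter peak was present at 8 of the 10 genes in the myogenic list, at 5 in the adipogenic and at 7 in the LSD1(OE) list. Over all genes the shares were 46.8, 27 and 37.3%. The 10 genes have 19 promoters, while all 26180 genes have 31647 start sites, so these genes had more places for a promoter peak. The shares were not matched for that number. Nfic, Nfix, Runx1, Runx2 and Cbfa2t2 had a promoter peak in each library. Nfib and Runx3 had one in myogenic medium and in LSD1(OE) cells, and Cbfb in myogenic medium alone of the 3. Nfia and Runx1t1 had none.

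Runx1 P2, the proximal promoter whose upstream bases are printed above, was strong in each library. Its main peak held 338 myogenic, 365 adipogenic and 352 LSD1(OE) tags, with scores of 1782, 1211 and 1464. The peak caller had multiplied ChIP tags by 1.90, 1.28 and 1.82 to match the inputs, and a score divided by that factor approximates the unscaled one. Divided by these factors the scores were 940, 949 and 802. The lead of myogenic over adipogenic medium in score was thus not seen without the scaling. Divided scores are not corrected for the number of ChIP tags, which was lowest in the myogenic and highest in the adipogenic library. Tag densities of the main peak were 2.32, 2.01 and 1.82, so myogenic medium led by density there. Over the whole merged region myogenic and adipogenic densities were 2.09 and 2.01. The log2 counting interval of adipogenic over myogenic medium, −0.26 to 0.15, held 0. Runx1 P1 differed more, with 258 myogenic, 120 adipogenic and 84 LSD1(OE) tags and scores of 904, 185 and 161. Divided by the factors these were 477, 145 and 88.2, and myogenic medium stayed the highest. A further LSD1(OE) peak in the same merged region, centred more than 2000 bp from P1, scored 374. Over that whole region tags were 258, 120 and 213, at densities of 1.53, 1.27 and 1.28. On the log2 scale the counting intervals against myogenic medium held 0. They ran from −0.59 to 0.04 for adipogenic medium and from −0.52 to 0.008 for LSD1(OE) cells.

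Runx2 P2 had scores of 712, 166 and 751, and the 2 higher values came from myogenic medium and from LSD1(OE) cells in adipogenic medium. Divided by the factors they were 375, 130 and 412. Tags over the whole merged region numbered 259, 195 and 277, at densities of 1.95, 1.20 and 1.53 tags per kb per 1000000 ChIP tags. Runx2 P1 had weaker peaks of 52 myogenic and 67 LSD1(OE) tags, with scores of 135 and 145, and none in the adipogenic list. Runx3 P1 had its peak in the myogenic list alone, with 95 tags and a score of 273. Runx3 P2 had scores of 79.5 in myogenic medium and 64.8 in LSD1(OE) cells. Both P2 values fell under the limit of 50 once divided by the scaling factors, at 42.0 and 35.5.

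The Cbfb promoter, rich in CpG with 19 in the 150 bases upstream of its start site, had a myogenic peak of 128 tags with a score of 359. Divided by the factor it was 189.5, above the listing limit. The nearest adipogenic peak was 16063 bp downstream of this start site and the nearest LSD1(OE) peak 8901 bp upstream. A peak missing from a list means that the signal did not pass the caller, whose smallest listed peaks held 35 adipogenic and 30 LSD1(OE) tags, not that Lsd1 was absent. The 150 bases are shown because this promoter had a peak in the myogenic list alone. They lie at chr8:105170524-105170673 and hold none of the motifs.
Cbfb promoter: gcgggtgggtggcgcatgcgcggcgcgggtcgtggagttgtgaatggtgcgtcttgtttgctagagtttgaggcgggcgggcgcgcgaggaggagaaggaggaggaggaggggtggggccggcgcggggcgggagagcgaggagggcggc
Among all 19 promoters 9 had a CpG ratio above 0.8, and of these 7 had a myogenic, 4 an adipogenic and 6 an LSD1(OE) peak. Of the 10 at or below it, 6, 5 and 6 had one. The shares over all start sites of each class were not counted, so these counts do not set the genes apart from other promoters.

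Among the other genes, Nfib had promoter scores of 368 in myogenic medium and 205 in LSD1(OE) cells. Cbfa2t2 had 426 in the myogenic, 149 in the adipogenic and 241 in the LSD1(OE) library, with 118, 110 and 116 tags. Nfic had 204, 239 and 124 within 2000 bp of its start site, below the highest intronic scores of each library. At Nfix P1 scores were 497, 207 and 226 and at P2 747, 156 and 54.8, the last of which was lost under each of the 4 stricter or rescaled lists tried. At its most downstream promoter, P4, where a wide myogenic peak spanned both P4 and the P3 start site, scores were 1592, 413 and 151. At Nfix P3 the adipogenic and LSD1(OE) peaks scored 538 and 570. Divided by the scaling factors these were 421 and 312, and the P1 scores were 262, 162 and 124. The higher LSD1(OE) than adipogenic score at P1 and P3 was thus not seen without the scaling.

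**Figure D3:**
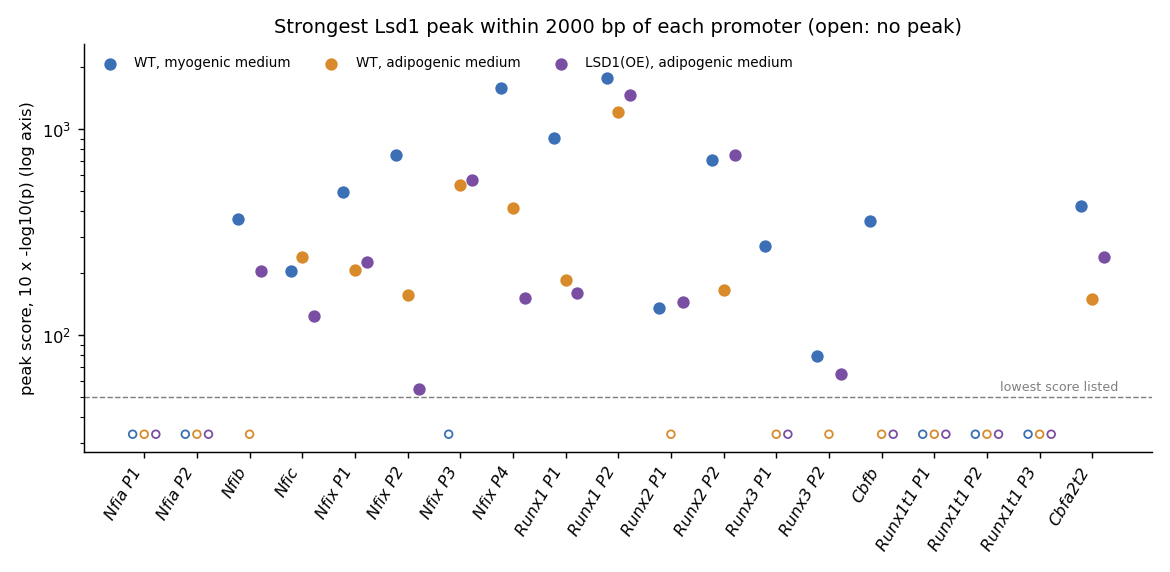
Score of the strongest Lsd1 peak centred within 2000 bp of each of the 19 promoters (log axis), by library. Open circles below the dashed line, the lowest score listed, mark promoters with no peak. Runx1 P2 is high in all 3 libraries, and Cbfb and Runx3 P1 have a filled circle for myogenic medium alone.

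To ask whether the libraries marked the same places, overlaps of at least 1 bp were counted. Of the 111 myogenic peaks, 49 (44.1%, Wilson 95% interval 35.3 to 53.4%) overlapped an adipogenic peak and 55 (49.5%, 40.4 to 58.7%) an LSD1(OE) peak, against 35.4 and 46.5% of all myogenic peaks. Of the 64 adipogenic peaks, 55 (85.9%, 75.4 to 92.4%) overlapped a myogenic and 54 (84.4%, 73.6 to 91.3%) an LSD1(OE) peak, against 80.5 and 74.5%. Of the 78 LSD1(OE) peaks, 56 (71.8%, 61.0 to 80.6%) overlapped a myogenic and 48 (61.5%, 50.4 to 71.5%) an adipogenic peak, against 59.8 and 42% of all LSD1(OE) peaks. The intervals cover counting error only. The lists differ in length. Cut to equal length, they held 53 myogenic, 64 adipogenic and 52 LSD1(OE) peaks at the genes, so the larger number in myogenic medium went with the longer list.

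Merged over the libraries, the peaks formed 121 regions. All 3 libraries shared 32 of them (26.4%, against 20.6% of the 56729 regions of the genome), and 8 of these lay at Runx1, 8 at Runx2 and 7 at Nfix. Myogenic medium alone had 48 regions (39.7%, against 35.9%), of which 12 lay at Runx2 and 11 at Nfix. LSD1(OE) alone had 16 (13.2%, against 20.8%), with 6 at Runx1 and 5 at Runx2 and 1 at Nfix. Myogenic medium and LSD1(OE) shared 11 regions (9.09%, against 12.2%) that the adipogenic list lacked, among them the Nfib promoter and Runx2 P1. A further 5 (4.13%, against 2.45%) were shared by both adipogenic libraries without myogenic medium. They included an intron of Cbfa2t2, 19011 bp inside the gene, that scored 73.1 in wild-type and 424 in LSD1(OE) cells. The local background, described further on, was 1.45 times the genome mean behind the first peak and 1.01 times behind the other, and tag densities were 1.33 and 1.44. The part of the background in the difference of scores was not tested.

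Tag density was then compared at regions with a peak in both libraries, as tags per kb per 1000000 ChIP tags over the peak as called. Such regions had to pass the caller in both lists, which keeps weaker signal out. At 37 regions of the genes, adipogenic medium had a median of 0.23 below myogenic medium on the log2 scale (−0.23), and 34 of the 37 were lower. Over all 14149 such regions the median was −0.32, and 88.2% were lower. For 13 of the 37 regions the 95% counting interval lay below 0, and for none above. The share of such intervals over all 14149 regions was not counted, so the 13 cannot be set against it. The largest drops were in the Nfix intron with the highest score, from 2.36 to 1.43 tags per kb per 1000000 ChIP tags, and at Runx2 P2, from 1.95 to 1.20. At Runx1 P2 the densities of the whole region were 2.09 and 2.01.

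Between LSD1(OE) and wild-type cells in adipogenic medium the median over 37 regions was 0.01, and 17 were lower in LSD1(OE) cells. Over all 13053 regions it was 0.13, and 29.4% were lower. The 95% counting interval lay above 0 for 7 of the 37 regions and below 0 for 2. The share of such intervals over all 13053 regions was not counted either, which also limits the interval counts of single genes. Runx2 was higher in LSD1(OE) cells at 9 of 10 regions with a median of 0.22, and 3 of its intervals lay above 0. Nfic was higher at 2 of 3 regions, both with an interval above 0. Nfib was lower at 4 of 4 with a median of −0.13, and each of these intervals held 0. Nfix was lower at 7 of 7 with a median of −0.25, and 2 of its intervals lay below 0. With tags not divided by length the medians were 0.13 for Runx2, 0.56 for Nfic, −0.16 for Nfib and −1.47 for Nfix. Without Nfix the median over 30 regions was 0.04. Between LSD1(OE) cells and myogenic medium the median was −0.24 at 43 regions, 31 of them lower, against −0.19 and 74.4% over 18581 regions. Nfix was again lower at every region, 10 of 10, with a median of −0.56. Without it the median was −0.10.

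The local background behind Nfix moved with this result. For each peak the background expected by the caller was solved from its tags, its length and its score, and divided by the mean of the input over the genome. At Nfix its median was 1.31 in myogenic medium and 1.32 in adipogenic medium, but 1.01 in LSD1(OE) cells. From the lowest to the highest Nfix peak the values ran from 1.08 to 1.72 in myogenic and 1.24 to 1.80 in adipogenic wild-type cells. In LSD1(OE) cells they ran from 0.972 to 1.23. At the other 8 genes with peaks every median lay between 1.00 and 1.02. The raised background was not limited to Nfix. From 78 to 95 Mb of chromosome 8 the medians over all peaks were 1.14, 1.20 and 1.01, and below and above that stretch they were 1.01 in each library. Cbfb lies on the same chromosome beyond the stretch.

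Set against its own local background, Nfix tag density was 0.16 higher in LSD1(OE) than in wild-type cells in adipogenic medium, where it had been 0.25 lower. Against myogenic medium the difference shrank from −0.56 to −0.13. The direction of Nfix between wild-type and LSD1(OE) cells in adipogenic medium thus turned with the background used. Against myogenic medium the median stayed lower, but 4 of 10 regions then lay above 0. The part of the background in the number and width of Nfix peaks was not tested. For adipogenic against myogenic medium, where both libraries had the raised background, Nfix stayed lower at −0.40 instead of −0.34. For Runx2 the median between LSD1(OE) and adipogenic medium was 0.17 instead of 0.22, and for Nfic 0.26 instead of 0.24.

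**Figure D4:**
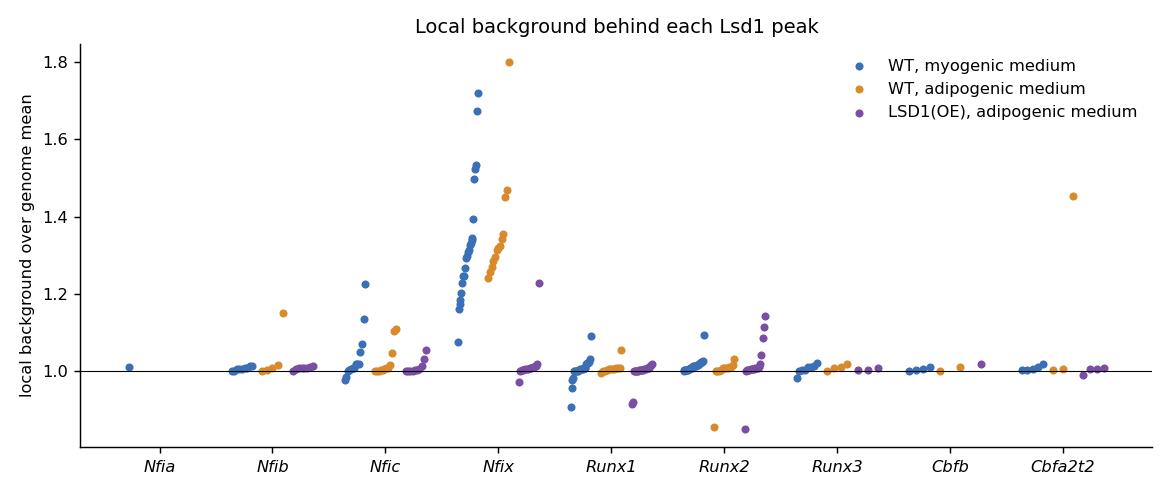
Local background behind each peak as a multiple of the genome mean (vertical axis), by gene and library. Nfix points of both wild-type libraries lie above 1, those of LSD1(OE) near 1, and the other genes lie near 1 in each library apart from single peaks.

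**Figure D5:**
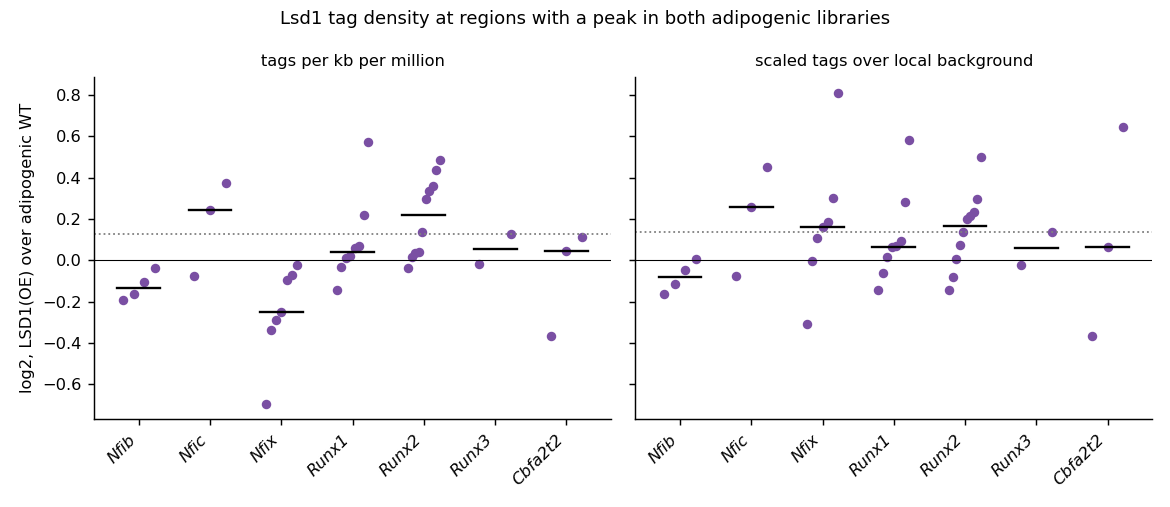
Log2 ratio of Lsd1 tag density, LSD1(OE) over wild-type cells in adipogenic medium, for each region with a peak in both libraries, as tags per kb per 1000000 ChIP tags (left) and after division by the local background (right). Short bars are medians per gene and dotted lines medians over all shared regions. Nfix lies below 0 on the left with a median of −0.25 and above 0 at 5 of 7 regions on the right, with a median of 0.16.

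The motifs bound by these proteins were searched for within 100 bases either side of the summits at their own genes. TGTGGT was present at 24.3% of the myogenic, 23.4% of the adipogenic and 17.9% of the LSD1(OE) peaks of the 10 genes, against 17.7, 17.4 and 16.4% of all peaks. The intervals, 17.3 to 33.1%, 14.8 to 35.1% and 11.0 to 27.9%, held the shares over all peaks. TGCGGT was present at 8.11% (4.32 to 14.7%), 10.9% (5.40 to 20.9%) and 6.41% (2.77 to 14.1%), against 4.28, 4.86 and 4.28%. Its first 2 intervals began just above the shares over all peaks, from 9 of 111 and 7 of 64 peaks. These are not separate results, since 85.9% of the adipogenic peaks overlapped a myogenic peak. The intervals treat peaks as independent, although many lie close together at a few genes. The E-box was present at 18.9, 25 and 16.7%, against 19.3, 21.99 and 19.2%. The NFI half-site was present at 15.3, 17.2 and 16.7%, against 11.8, 12.9 and 12.6%. The full palindrome of TTGGC and GCCAA with 5 bases between was at none of the summits of the 10 genes and at 0.0207, 0.0318 and 0.0417% of all. AP-1 sites were at 10.8% (6.29 to 17.9%), 14.1% (7.58 to 24.6%) and 21.8% (14.1 to 32.2%), against 13.6, 14.7 and 13.1%. At the Runx genes and Cbfb 8 of 59 myogenic, 7 of 31 adipogenic and 14 of 42 LSD1(OE) peaks had one, and at the Nfi genes 4 of 47, 2 of 30 and 3 of 32.

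Partners and targets of the proteins were taken from lists chosen by name. Of 12 corepressors and cofactors of Runx and ETO proteins, promoter peaks were listed for 11 in the myogenic, 7 in the adipogenic and 11 in the LSD1(OE) library, beside shares of 46.8, 27 and 37.3% over all genes. Among the highest scores were those of the Groucho corepressors Tle1, with 1935, 483 and 2213, and Tle2, with 630, 259 and 762. Of 10 genes known as targets of Runx2 in bone or of Nfix in muscle, 4, 3 and 3 had a promoter peak, which is near the shares over all genes. Col1a1, a collagen of bone, led with 552, 140 and 314, followed by Nfatc4 with 344, 165 and 149. Spp1, osteopontin, had 293 in myogenic and 65.6 in adipogenic medium and no promoter peak in LSD1(OE) cells. Mstn, Mmp13 and Ibsp had no peak in their windows in any library.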

How the data were processed

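Lsd1 ChIP-seq of C2C12 cells was analysed from 3 peak lists, 1 per ChIP library. Reads of 50 bp from 1 end were mapped by the authors to mm10 with Bowtie, who then called peaks against each library's own input using MACS 1.4.2, per the file headers, at a p cut-off of 1e-05. The labels name Bowtie2 and MACS 1.41 instead. The deposited tag counts per peak are whole counts after MACS had limited duplicates, and the score deposited beside them equals −log10 of the p-value times 10, computed after the smaller library was scaled up to the larger. The deposited fold ratio over the local background and the FDR in percent were not recomputed. The limit of 1% on the FDR removed no peak. Filtered ChIP tags numbered 46155625 in the myogenic, 63915769 in the adipogenic and 55193310 in the LSD1(OE) library, and filtered input tags 87508211, 81567427 and 100711088, and the smallest peak held 27, 35 and 30 tags, which limits what a list can show.

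Genes and 31647 start sites came from 45756 curated RefSeq transcripts on GRCm38.p6, the assembly of mm10, and start sites within 1000 bp of each other were taken as 1 promoter. Sequences were read from the same assembly. The genes, lists and motifs were chosen with earlier results of these data known, so they support nothing beyond their own values. All 10 genes are named with their values, and of the partner and target lists the 3 genes with the highest promoter score, except 1 partner that is not reported here. Target genes without any window peak were added to these after their values were seen. Intervals of tag ratios are Poisson counting intervals and cover counting error only. With 1 library a condition no test between conditions was made. Assignment, overlap and the solved background were tested on simulated peaks. Alternatives were a stricter FDR or score, equal peak numbers, tags not scaled up, other flanks, assignments and promoter widths, stricter overlaps, and other scalings of tags, and division by the local background was added after the data were seen. Computations used SciPy 1.17.1, pandas 2.3.3 and NumPy 2.4.6 under Python 3.11.15.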

Additional observations from a re-analysis of the deposited data

How the results depend on the processing

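No paired analysis was possible because each condition has 1 ChIP library. Of 132 alternative values, 109 stayed within 1.5 times the count or within the interval of the value reported, 22 moved further and 1 changed sign. No count of genes with a peak or a promoter peak was among those 23, but that limit is wide for small counts. Genes with an LSD1(OE) promoter peak fell from 7 to 5 at an FDR limit of 0.1%, the same as the adipogenic 5. They were 6 at a score of at least 100, with equal peak numbers and with tags not scaled up. The peaks at the genes numbered 66 in myogenic medium and 42 in LSD1(OE) cells at an FDR limit of 0.1%, 71 and 51 at a score of at least 100, 53 in myogenic medium with equal peak numbers and 72 in myogenic medium with tags not scaled up. The share of myogenic peaks overlapping adipogenic peaks was 77.4% with equal peak numbers, 54.2% with tags not scaled up and 33.3% with summits within 500 bp, and the share overlapping LSD1(OE) peaks was 66.0% with equal peak numbers and 39.6% with summits within 500 bp. The share of adipogenic peaks overlapping myogenic peaks was 93.3% at a score of at least 100 and 57.8% with summits within 500 bp, and overlapping LSD1(OE) peaks 71.9% with equal peak numbers and 51.6% with summits within 500 bp. The share of LSD1(OE) peaks overlapping myogenic peaks was 56.4% with summits within 500 bp, and overlapping adipogenic peaks 75.0% with equal peak numbers, 72.2% with tags not scaled up and 42.3% with summits within 500 bp. With tags not divided by length the median log2 ratio was −0.41 for adipogenic over myogenic medium, −0.47 for LSD1(OE) over myogenic medium and −0.0073 for LSD1(OE) over adipogenic medium, which had been 0.0133. Divided by the local background, an alternative added after the data were seen, the last was 0.0732. The causes were not tested. Depth limits weak peaks most, since the lists begin at 27 to 35 tags.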
